A study of Rattus norvegicus with 9 samples.

Results

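Glycolysis is carried by enzymes that most cells make in a general form, and skeletal muscle makes several of them in a form of its own. The 10 genes described here encode enzymes of this pathway: Hk2, Pfkm, Pfkp, Aldoa, Tpi1, Pgk1, Pgam1, Pgam2, Eno1 and Eno3. They were taken by gene name from a table of 31125 gene rows, and each name matched 1 row. RNA of whole rat femurs was sequenced in 9 libraries, 3 in each of 3 groups, all from male rats at day 7. The Sham group had sham surgery, the GPI group had a modelled injury of the distal femoral growth plate, and the GMTT group had the same injury and was then given a hydrogel called GMTT, made per the series title from tea polyphenols with GelMA, a modified gelatin, and TPGS, a form of vitamin E. The labels call the femurs intact, or for GMTT name an intact growth plate. Strain, age and the amount of muscle or marrow left on the bone were not given in the sources used here, and there was no group of uninjured femurs with hydrogel or of injury with an empty gel.

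In glycolysis, glucose is phosphorylated by a hexokinase, phosphorylated again by phosphofructokinase, which is the main point of control, and split by aldolase. Triosephosphate isomerase, glyceraldehyde-3-phosphate dehydrogenase, phosphoglycerate kinase, phosphoglycerate mutase, enolase and pyruvate kinase then carry its products to pyruvate with a net gain of ATP. Muscle fibres use this route for rapid contraction, with the subunits or isoforms Pfkm, Pgam2 and Eno3 and the insulin-responsive hexokinase Hk2. Pfkp, Pgam1 and Eno1 are the forms of many other cells, including blood cells and their precursors, while chondrocytes of the growth plate, which has few vessels, also depend on glycolysis.

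Libraries held between 15927429 and 19715997 counts. Skeletal muscle markers (19 of 20 found in the table, none at 0 in any group) took 0.331% to 0.349% of all counts in the Sham libraries, 16.4% to 16.7% in GPI and 3.13% to 3.33% in GMTT. Erythroid markers (13 of 14 found, none at 0 in any group) took 8.17% to 9.10%, 0.213% to 0.218% and 4.41% to 4.83%. The defining markers of the labelled tissue were present: all 8 chondrocyte markers and all 9 osteoblast and osteocyte markers had counts in every group, the first taking 0.0170%, 0.00698% and 0.0187% and the second 0.118%, 0.0136% and 0.0832% of the counts on average in Sham, GPI and GMTT. All shares here are of raw counts. After scaling between libraries (TMM), 4 of 7 chondrocyte markers tested were higher and 3 lower in GPI than in Sham. Their median log2 fold change was 0.77, but -0.33 with library sizes alone, so the direction for chondrocyte markers depends on the scaling. Neutrophil markers took 0.985%, 0.000699% and 1.14% on average and monocyte and macrophage markers 0.560%, 0.00506% and 0.597%, so both were lowest in GPI and highest in GMTT, the order of Pfkp, Pgam1 and Eno1 below. Adipocyte markers took 0.00765%, 0.0250% and 0.0162%, highest in GPI like Hk2. None of the 10 neutrophil, 7 monocyte and macrophage or 5 adipocyte markers was at 0 in any group. Endothelium markers took 0.0192%, 0.0406% and 0.0240%, also highest in GPI. The erythroid and the osteoblast and osteocyte shares were instead highest in Sham. So were those of B lymphocyte markers (0.0688%, 7.13e-05% and 0.0415%) and of markers of dividing cells (0.337%, 0.00195% and 0.242%). None of the 10 enzyme genes below had that order. The part of any of these shares in the results was not tested. In bulk tissue fewer cells of a type and less RNA per cell cannot be told apart.

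In the 3 pairs of isoforms the muscle form rose in GPI and the general form fell, and Hk2, Aldoa, Tpi1 and Pgk1 rose as well. Eno3 was 63.9-fold and Pgam2 59.9-fold higher in GPI than in Sham, Pfkm 27.1-fold and Tpi1 12.8-fold, while Pfkp, Pgam1 and Eno1 were 1.64-fold, 1.44-fold and 1.34-fold lower. Between GPI and GMTT each of these genes differed in the opposite direction, and each of the 10 genes was higher in GMTT than in Sham. With p-values of edgeR's quasi-likelihood test adjusted over 15936 genes (Benjamini-Hochberg, called below 0.05), 7 of the 10 genes were higher and 3 lower in GPI than in Sham, where 88.2% of all genes tested were called, 40.1% higher and 48.1% lower. Against GPI, 3 were higher and 7 lower in GMTT, and 85.9% of all genes passed, 45.7% upward and 40.2% downward. Relative to Sham all 10 were higher in GMTT, and 57.8% of all genes passed, 29.5% upward and 28.3% downward. That all 10 genes were called in the first pair of contrasts is thus near what most genes did. The share of all genes whose groups did not overlap was not computed. Statements below that groups lay apart therefore describe each gene and do not set it off from other genes. The median log2 fold change of the 10 genes was 2.51, -1.72 and 0.88 in the 3 contrasts, beside -0.19, 0.12 and -0.003 over all genes tested and 6.43, -3.31 and 3.20 over the 19 skeletal muscle markers.

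All 3 contrasts use the same 9 libraries in 1 model, and each pair of contrasts shares a group. Without Aldoa, adjusted p of the 9 other genes ran from 2.78e-38 (Eno3) to 1.42e-09 (Eno1) for GPI against Sham, from 3.38e-31 (Eno3) to 1.44e-14 (Pfkp) for GMTT against GPI and from 1.10e-30 (Eno3) to 3.26e-05 (Pfkp) for GMTT against Sham, by the same edgeR test. The values depend on the scaling between libraries: with library sizes alone the all-gene median went from -0.19 to -1.28 for GPI against Sham and from 0.12 to 1.22 for GMTT against GPI. The split of all calls then moved from 6387 higher and 7662 lower to 3521 and 11210 in the first contrast, and from 7285 and 6400 to 11503 and 3016 in the second. Every one of the 10 genes kept its direction. A change of scaling moves all genes and their median by nearly the same amount. Values relative to that median therefore barely change by construction, and they are no check of the scaling. For GPI against Sham Eno3 stood 6.19 above the median by TMM and by library sizes. Eno1, the nearest to the median, stood at -0.23 by TMM and -0.24 by library sizes.

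**Figure D1:**
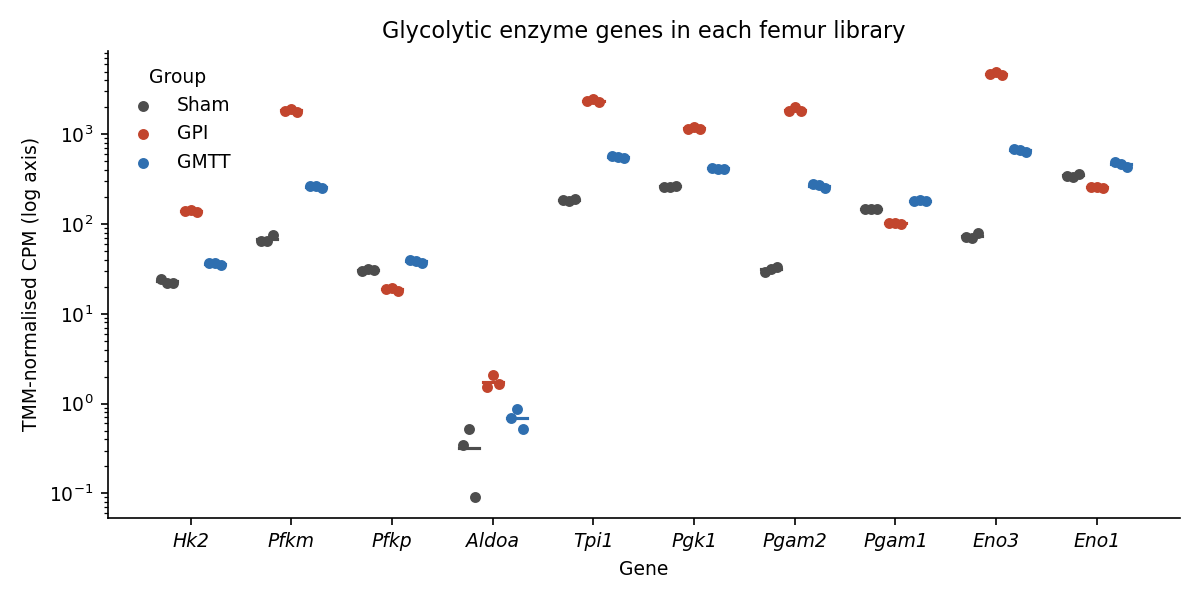
TMM-normalised CPM (log axis) of the 10 genes in each of the 9 libraries, with a bar at each group mean. GPI lies highest for Hk2, Pfkm, Aldoa, Tpi1, Pgk1, Pgam2 and Eno3 and lowest for Pfkp, Pgam1 and Eno1, and Aldoa lies far below the other genes at 0.09 to 2.10 CPM.

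**Figure D2:**
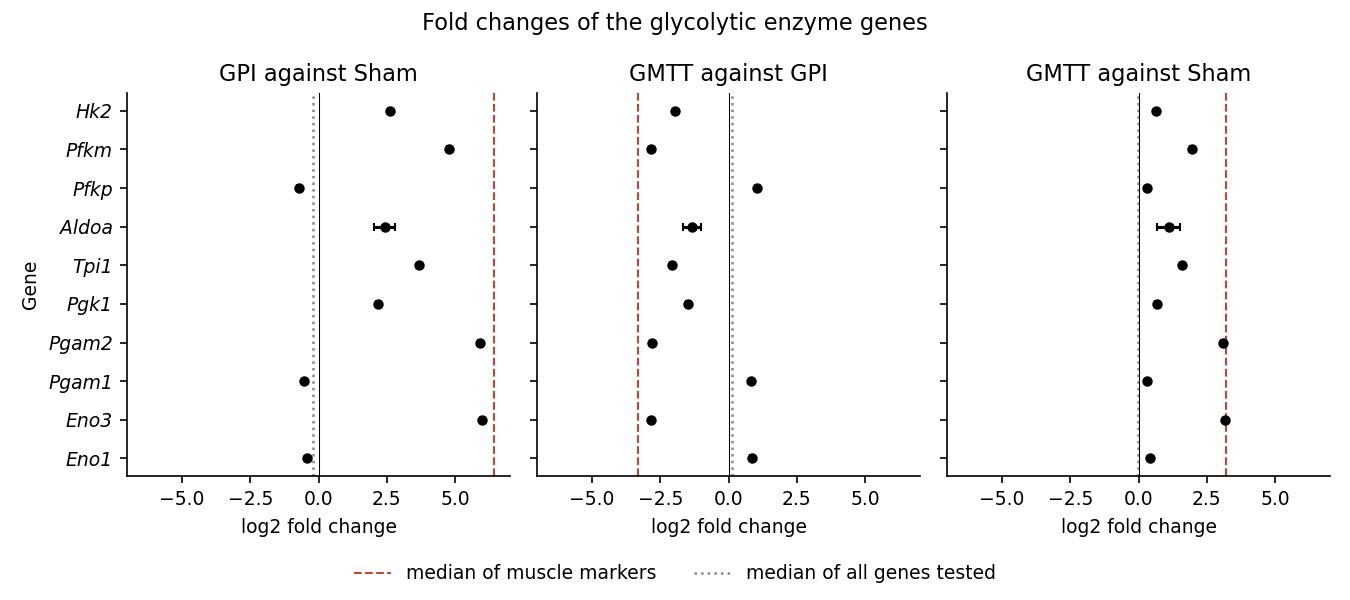
Log2 fold change of the 10 genes in the 3 contrasts, with the standard error as a bar (visible for Aldoa only), the median of the skeletal muscle markers (dashed) and that of all genes tested (dotted). Eno3 lies nearest to the muscle median in each contrast, and Pfkp, Pgam1 and Eno1 lie on the other side of 0 from it in the first pair of contrasts.

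Hexokinase 2 (Hk2, ENSRNOG00000006116; mRatBN7.2 chromosome 4, 115234509 to 115283530, minus strand) catalyses the first step and is the form that muscle and fat use under insulin. Its normalised CPM, the count per library total scaled by TMM, was 24.5, 22.3 and 22.2 in Sham, 139, 144 and 135 in GPI and 36.7, 36.9 and 34.7 in GMTT. No GPI library overlapped another group, and GMTT lay above Sham but far nearer to it than to GPI. The log2 fold change was 2.60 (SE 0.06) for GPI against Sham, -1.95 (SE 0.06) for GMTT against GPI and 0.65 (SE 0.06) for GMTT against Sham. The other hexokinases went the opposite way in GPI. Hk1, the general form, was 342 ± 19.3 CPM in Sham, 32.5 ± 1.40 in GPI and 266 ± 10.3 in GMTT (SD, n = 3), and Hk3, which is made mainly by white blood cells, was 42.3 ± 1.26, 0.402 ± 0.249 and 55.9 ± 3.22 CPM.

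Phosphofructokinase commits the sugar to glycolysis. Its muscle subunit gene Pfkm (ENSRNOG00000057988; chromosome 7, 129221653 to 129259192, plus strand) was at 65.0, 64.3 and 74.8 CPM in Sham, 1839, 1907 and 1792 in GPI and 267, 263 and 253 in GMTT. The 3 groups lay well apart, with log2 fold changes of 4.76 (SE 0.06), -2.82 (SE 0.05) and 1.94 (SE 0.05), in the same order of contrasts as for Hk2, which is kept below. The platelet-type subunit gene Pfkp (ENSRNOG00000017163; chromosome 17, 63729780 to 63794018, plus strand) was at 30.2, 31.6 and 30.5 CPM in Sham, 18.9, 19.6 and 17.9 in GPI and 40.1, 38.6 and 37.2 in GMTT. Here GPI was the lowest group and GMTT the highest, again with no overlap, and the log2 fold changes were -0.71 (SE 0.07), 1.04 (SE 0.07) and 0.33 (SE 0.06). The liver-type subunit gene Pfkl fell further than Pfkp in GPI, by 1.94 on the log2 scale (SE 0.08), and at -0.14 (SE 0.06) was not called between GMTT and Sham.

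Aldolase A, the muscle and red cell form, splits the sugar bisphosphate. Its gene Aldoa (ENSRNOG00000052802; chromosome 1, 181402275 to 181406182, minus strand) had 7, 12 and 2 raw counts in the Sham libraries, 18, 25 and 17 in GPI and 16, 20 and 12 in GMTT. The next step, Tpi1, had 3762 to 29032 counts a library. The gene model lies wholly within that of LOC103691235 on the same strand (181402275 to 181417714), which is also described as aldolase A and had only 12 to 23 counts a library. Rows other than Aldoa held 65.7% to 90.5% of the counts of all rows described as aldolase A. Summed over the 9 libraries the largest of these was ENSRNOG00000063843. In the Sham libraries the other rows had 20, 23 and 19 counts together, and LOC103691235 had 16, 14 and 12. How the counting treated reads shared by these rows is not given in the sources used here, and the effect of the overlap on the values was not tested. The level of Aldoa is therefore uncertain. On those counts the log2 fold change was 2.43 (SE 0.38), -1.33 (SE 0.33) and 1.10 (SE 0.41), with adjusted p of 7.41e-07, 0.000395 and 0.0218 by edgeR's quasi-likelihood test. The last of these calls was lost without Sham replicate 3 (log2 0.67, adjusted p = 0.164), without GMTT replicate 2 (0.90, adjusted p = 0.107) and with DESeq2 (1.15, adjusted p = 0.0586), all after Benjamini-Hochberg adjustment, and with library sizes alone the call of GMTT against GPI was lost (-0.23, adjusted p = 0.495).

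Triosephosphate isomerase (Tpi1, ENSRNOG00000015290; chromosome 4, 157615386 to 157619541, minus strand) interconverts the products of aldolase and has no muscle form of its own. It was at 184, 180 and 192 CPM in Sham, 2370, 2439 and 2289 in GPI and 569, 560 and 541 in GMTT. GPI was far above both other groups and GMTT about 3-fold above Sham, with log2 fold changes of 3.67 (SE 0.05), -2.09 (SE 0.04) and 1.59 (SE 0.04). Phosphoglycerate kinase 1 (Pgk1, ENSRNOG00000058249; chromosome X, 71271440 to 71287418, plus strand), which makes the first ATP of the pathway in nearly all tissues, was at 260, 262 and 268 CPM in Sham, 1158, 1217 and 1151 in GPI and 421, 411 and 415 in GMTT. It had the smallest rise in GPI of the 7 genes that rose there, 2.16 (SE 0.04), followed by -1.50 (SE 0.04) and 0.66 (SE 0.04). Other rows described as the same protein held at most 1.04% of the summed counts for Tpi1 and 0.0661% for Pgk1. The step between these 2 enzymes is that of glyceraldehyde-3-phosphate dehydrogenase. No row carried the symbol Gapdh. LOC108351137, the row of highest mean count described as this enzyme, was picked after its values were seen, and any other such row is not reported. It was at 447 ± 77.3, 3995 ± 260 and 986 ± 131 CPM in Sham, GPI and GMTT, with log2 fold changes of 3.16, -2.02 and 1.14.

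Phosphoglycerate mutase and enolase come next, and at both steps the muscle and the general gene went opposite ways. The promoter windows of these 4 genes are shown because Pgam2 and Eno3 moved together and apart from Pgam1 and Eno1. They are RefSeq sequences of the rat assembly GRCr8, each running 5′ to 3′ on the strand of its gene from 250 bases before the start site to 50 bases after it. GRCr8 is not the build of the counts. Of the 10 genes 9 (all but Pgk1) matched an entry by symbol, some with several start sites, and Eno1 has 2 windows. Capitals mark every E-box, the letters CANNTG, which are the same on both strands and are the core to which the myogenic bHLH factors and many other bHLH factors bind.
Pgam2 (GRCr8 chr14:84897825-84898124, minus strand): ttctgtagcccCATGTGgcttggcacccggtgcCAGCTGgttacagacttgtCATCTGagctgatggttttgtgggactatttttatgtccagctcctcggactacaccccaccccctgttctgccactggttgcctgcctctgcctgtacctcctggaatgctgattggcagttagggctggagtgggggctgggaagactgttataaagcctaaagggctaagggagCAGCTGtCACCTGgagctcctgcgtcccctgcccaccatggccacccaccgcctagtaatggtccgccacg
Eno3 (GRCr8 chr10:55868936-55869235, plus strand): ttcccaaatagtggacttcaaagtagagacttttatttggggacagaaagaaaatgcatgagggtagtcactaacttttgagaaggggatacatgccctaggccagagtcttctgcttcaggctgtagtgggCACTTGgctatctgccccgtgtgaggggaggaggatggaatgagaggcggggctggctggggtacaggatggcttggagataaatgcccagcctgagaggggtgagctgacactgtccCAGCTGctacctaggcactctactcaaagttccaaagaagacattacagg
Pgam1 (GRCr8 chr1:250672902-250673201, plus strand): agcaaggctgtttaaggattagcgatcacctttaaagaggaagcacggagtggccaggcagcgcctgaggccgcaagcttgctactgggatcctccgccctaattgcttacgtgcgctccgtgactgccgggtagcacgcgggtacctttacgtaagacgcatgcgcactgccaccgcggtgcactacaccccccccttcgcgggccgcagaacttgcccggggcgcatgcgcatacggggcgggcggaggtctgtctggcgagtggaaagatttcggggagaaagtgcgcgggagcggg
Eno1, first window (GRCr8 chr5:166002617-166002916, plus strand): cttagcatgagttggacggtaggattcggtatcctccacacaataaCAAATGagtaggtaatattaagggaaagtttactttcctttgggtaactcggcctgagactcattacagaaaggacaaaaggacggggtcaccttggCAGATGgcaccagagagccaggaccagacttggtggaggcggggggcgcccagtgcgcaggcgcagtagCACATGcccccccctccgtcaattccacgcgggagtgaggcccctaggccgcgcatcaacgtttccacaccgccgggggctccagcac
Eno1, second window (GRCr8 chr5:166003111-166003410, plus strand): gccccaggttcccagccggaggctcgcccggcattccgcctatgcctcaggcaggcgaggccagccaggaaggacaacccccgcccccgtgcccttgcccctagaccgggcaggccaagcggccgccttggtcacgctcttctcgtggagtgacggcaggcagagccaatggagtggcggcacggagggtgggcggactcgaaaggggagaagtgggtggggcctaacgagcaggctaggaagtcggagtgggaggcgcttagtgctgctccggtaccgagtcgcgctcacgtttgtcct

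The Pgam2 window held 5 E-boxes, which begin 239, 217, 198, 21 and 14 bases before the start, and the letters TATAAA 46 bases before it. At least 5 E-boxes were found in 1.77% of all 33469 promoter windows of this length and at least 1 in 72.1%, and TATAAA, searched on both strands, was found in 14.2%. The Eno3 window held 2 E-boxes, 118 bases before the start and at the start itself, and 38.6% of windows held at least 2. Pgam1 had no E-box, and Eno1 had 3 in its first window (16.6% of windows had at least 3) and none in its second. The letters ACGTG are 1 form of the core of the hypoxia response element, and other forms were not searched. ACGTG was searched on both strands and may overlap an E-box. It was in the Pgam1 window, the second Eno1 window, the Pfkm window and 1 of the Aldoa windows, and in 19.25% of all windows. For the MEF2 factors only exact matches to CTAWWWWTAR were searched, also on both strands, where W is A or T and R is A or G. Such a match was in 1 of the Aldoa windows and in no other window of these genes. Near matches were not counted, so windows without a match may still hold a looser form. It was found in 1.87% of all windows. So the muscle gene of each pair did not always have more E-boxes than its general partner, and a match of letters in a window is a description, not a site in use.

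Pgam2, the muscle mutase (ENSRNOG00000013532; mRatBN7.2 chromosome 14, 80681776 to 80683940, minus strand), was at 29.2, 31.7 and 33.2 CPM in Sham, 1801, 1996 and 1833 in GPI and 278, 273 and 251 in GMTT. The groups did not overlap, and the lowest GPI library was several times the highest GMTT library. The log2 fold change was 5.90 (SE 0.06) for GPI against Sham, -2.81 (SE 0.05) for GMTT against GPI and 3.09 (SE 0.06) for GMTT against Sham. Pgam1, the mutase of most other tissues (ENSRNOG00000050585; chromosome 1, 240723920 to 240738452, plus strand), was at 148, 146 and 147 CPM in Sham, 104, 103 and 99.9 in GPI and 183, 184 and 180 in GMTT. The order was reversed, with GPI lowest and GMTT highest and no overlap, and the log2 fold changes were -0.52 (SE 0.05), 0.83 (SE 0.05) and 0.31 (SE 0.05). Pgam1 overlaps Exosc1 on the opposite strand, which had 91 to 507 counts a library against 1037 to 4277 for Pgam1, and which fell by 1.30 in GPI against Sham.

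Eno3, the muscle enolase (ENSRNOG00000004078; chromosome 10, 55366975 to 55375921, plus strand), was at 72.5, 70.5 and 80.0 CPM in Sham, 4694, 4941 and 4605 in GPI and 688, 668 and 642 in GMTT. All 3 groups lay apart, and Eno3 reached the highest CPM of the 10 genes in GPI. Its log2 fold changes were 5.997 (SE 0.06), -2.83 (SE 0.05) and 3.16 (SE 0.05). Eno1, the general enolase (ENSRNOG00000017895; chromosome 5, 160719951 to 160731336, plus strand), was at 346, 337 and 361 CPM in Sham, 260, 262 and 255 in GPI and 494, 467 and 431 in GMTT. Like Pgam1 and Pfkp it was lowest in GPI and highest in GMTT without overlap, with log2 fold changes of -0.43 (SE 0.05), 0.84 (SE 0.05) and 0.42 (SE 0.05). Other rows described as enolase 1, chiefly Eno1-ps1, held 1.95% to 6.56% of the summed counts. Eno3 lies inside the model of Pfn1 on the opposite strand, which changed the other way, with -2.02 for GPI against Sham and 1.94 for GMTT against GPI. The libraries were made to keep strand, per the labels' protocols, but the strand setting of the counting is not given in the sources used here. Reads of such overlapping pairs may not have been told apart.

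Within a library the ratio of the muscle to the general gene does not depend on the scaling between libraries. Levels were compared per length, as FPKM. The log2 ratio of Pgam2 to Pgam1 was -1.31, -1.17 and -1.12 in Sham, 5.15, 5.30 and 5.23 in GPI and 1.64, 1.60 and 1.51 in GMTT. Pgam1 thus led in every Sham library and Pgam2 in every other library, by 37.5 to 1 in GPI and 3.00 to 1 in GMTT on average. The log2 ratio of Eno3 to Eno1 was -2.31, -2.31 and -2.23 in Sham, 4.12, 4.19 and 4.12 in GPI and 0.42, 0.46 and 0.52 in GMTT, so that Eno1 led in Sham, Eno3 led by 17.7 to 1 in GPI, and Eno3 led by 1.38 to 1 in GMTT. The log2 ratio of Pfkm to Pfkp was 0.69, 0.60 and 0.87 in Sham, 6.18, 6.18 and 6.22 in GPI and 2.31, 2.35 and 2.35 in GMTT, and Pfkm led in all 9 libraries.

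For each of the 3 ratios the difference among the groups had an exact permutation p of 0.003571 over the 1680 arrangements of 9 libraries, the smallest they can give, and the same after adjustment over the 3 ratios. Between groups the log2 ratio of GPI exceeded that of Sham by 6.43 (SE 0.07) for Pgam2 over Pgam1, by 6.42 (SE 0.04) for Eno3 over Eno1 and by 5.48 (SE 0.08) for Pfkm over Pfkp. GMTT was below GPI by -3.65 (SE 0.06), -3.67 (SE 0.04) and -3.86 (SE 0.02) and above Sham by 2.79 (SE 0.07), 2.75 (SE 0.04) and 1.61 (SE 0.08). Each of these 9 pairwise differences had an exact 2-sided permutation p of 0.1, which is the smallest that 3 libraries against 3 allow, and 0.1 after adjustment over the 9. The ratios followed the order of the muscle marker share, which was lowest in Sham and highest in GPI.

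**Figure D3:**
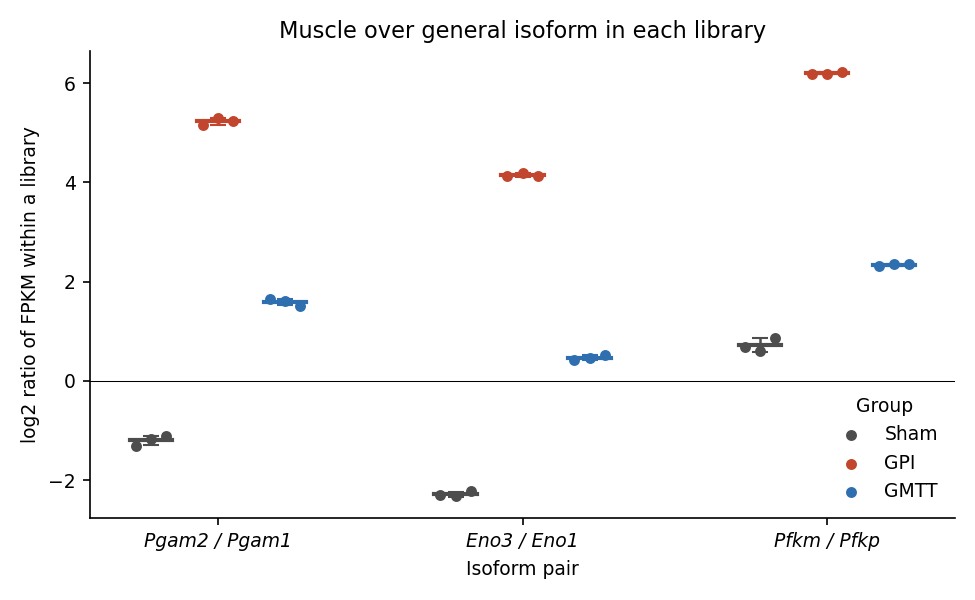
Log2 ratio of the muscle to the general isoform (FPKM within a library) for 3 pairs, 1 point per library, with the group mean and SD. In each pair GPI is highest and Sham lowest, and the Pgam and Eno ratios cross 0 between Sham and the other groups.

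As shares of their enzyme family per length, the muscle forms were the largest part in GPI. Pgam2 made up 30.3% ± 1.46 of the mutase FPKM in Sham, 97.4% ± 0.132 in GPI and 75.0% ± 0.863 in GMTT (SD, n = 3). Eno3 made up 16.9% ± 0.479, 94.5% ± 0.126 and 57.8% ± 0.823 of the enolase FPKM, with the neuronal form Eno2 at most at 0.957% in a library. Pfkm made up 31.5% ± 0.745, 97.2% ± 0.0855 and 63.8% ± 0.919 of the phosphofructokinase FPKM, where Pfkl was the largest part in Sham at 49.3% ± 0.764. Hk2 differed from the other 3 in GMTT: it was 9.20% ± 0.441 of the hexokinase FPKM in Sham and 88.9% ± 0.345 in GPI but only 15.1% ± 0.168 in GMTT, where Hk1 held 57.5% ± 0.313 and Hk3 27.4% ± 0.478.

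Family totals behaved differently as well. The summed FPKM was 120 ± 2.01 in Sham, 2281 ± 118 in GPI and 422 ± 18.9 in GMTT for the mutases. It was 178 ± 6.40, 2082 ± 64.9 and 478 ± 25.0 for the enolases and 54.4 ± 3.20, 489 ± 13.4 and 105 ± 4.68 for the phosphofructokinases. The hexokinases were lower in GPI, at 42.3 ± 1.26 against 66.1 ± 2.78 in Sham and 64.8 ± 2.96 in GMTT, since the fall of Hk1 and Hk3 exceeded the rise of Hk2. FPKM carries the authors' own scaling between libraries, so these totals, unlike the shares, depend on it. Together the 10 genes took 0.150% ± 0.00378 of all counts in the Sham libraries, 0.754% ± 0.0291 in GPI and 0.373% ± 0.0145 in GMTT.

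**Figure D4:**
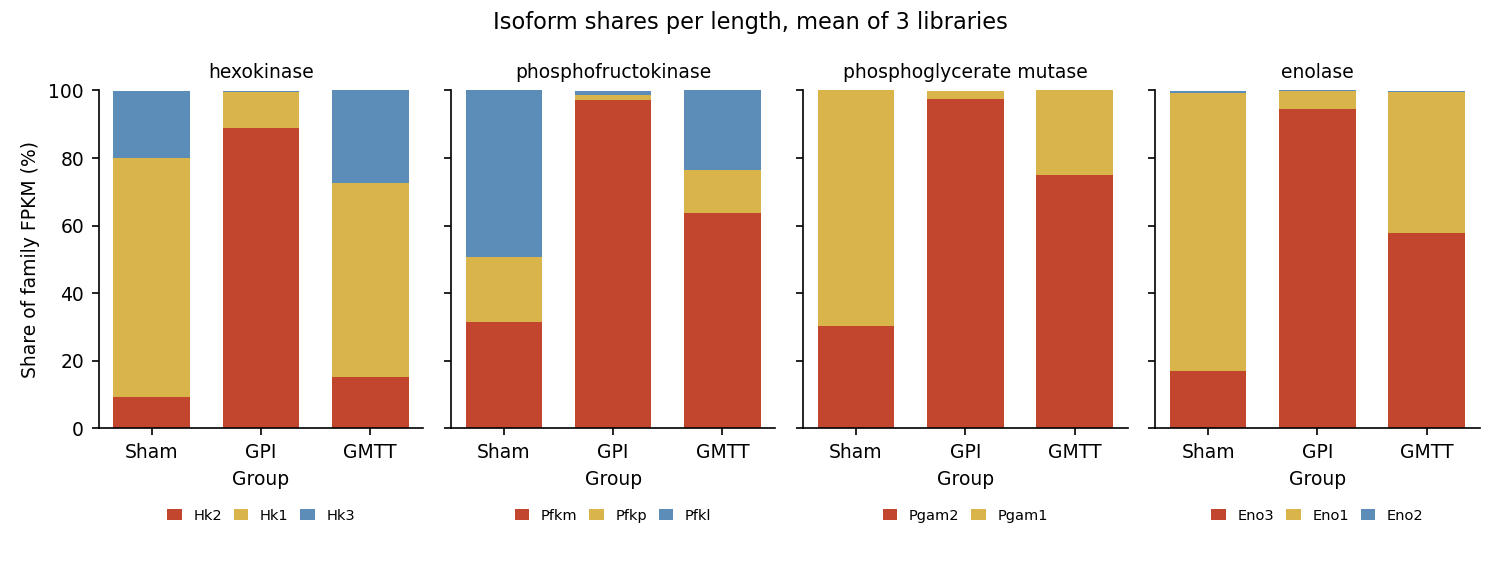
Mean share of each isoform in the summed FPKM of its enzyme family, by group (3 libraries each), with the form highest in muscle in red. The red part is above 88% in GPI in all 4 families, and in GMTT it is above 57% except for Hk2, at 15.1%.

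Per length the order of the 10 genes changed between groups. In Sham the general and shared forms led, with Eno1 at 147 ± 4.48 FPKM, Pgk1 at 130 ± 1.77, Tpi1 at 115 ± 3.53 and Pgam1 at 83.3 ± 0.333, followed by Pgam2, Eno3, Pfkm, Pfkp, Hk2 and Aldoa. In GPI the muscle forms led, with Pgam2 at 2221 ± 118 FPKM and Eno3 at 1968 ± 63.9, followed by Tpi1 at 1499 ± 40.2, Pgk1, Pfkm, Eno1, Pgam1, Hk2, Pfkp and Aldoa. The order in GMTT was mixed, with Tpi1 at 353 ± 10.2 FPKM, Pgam2 at 316 ± 17.7, Eno3 at 276 ± 10.5, Pgk1 at 210 ± 3.04 and Eno1 at 199.8 ± 14.2, then Pgam1, Pfkm, Pfkp, Hk2 and Aldoa. Neighbours in these orders did not overlap across libraries, except Pgk1 and Eno1 in GMTT.

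Among 9485 genes with a symbol and a mean log2 CPM of at least 3, the 3 nearest in pattern to each of Pgam2, Eno3, Pgam1 and Eno1 were found by the root mean square difference of log2 CPM over the 9 libraries after centring. Nearest to Pgam2 were Eno3 (0.0611), the myosin light chain gene Myl1 (0.0787) and Cav3, the muscle caveolin (0.0988). Nearest to Eno3 were Pgam2 (0.0611), Jph2 (0.07003), which encodes a junctophilin of striated muscle, and Cav3 (0.0785). The genes nearest to the general forms were others: Gab2 (0.0315), Nfkb1 (0.0526) and Entpd1 (0.0526) for Pgam1, and Hsd17b11 (0.0556), Scd2 (0.0669) and Pgam1 (0.0682) for Eno1. The 9 libraries fall into 3 groups, so a small difference means mainly a like pair of steps between the groups.

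The other genes of the pathway went both ways in GPI. Of 10 other glycolytic enzyme genes tested, 4 were higher and 6 lower in GPI than in Sham, with a median log2 fold change of -1.98. Pkm, the pyruvate kinase of muscle and most other tissues, rose by 2.22 (SE 0.08), and Gpi, the gene of glucose-6-phosphate isomerase (not the injury group), rose by 1.32 (SE 0.05). Aldoc (0.61) and Eno2 (0.54) were also called higher, but with library sizes alone they turned to -0.48 and -0.56. Hk3 fell by 6.66, Hk1 by 3.39, Adpgk by 3.33, Bpgm, which makes the 2,3-bisphosphoglycerate of red cells, by 2.02, and Pfkl by 1.94. Pklr, the pyruvate kinase of liver and red cells, had 1 count over the 3 GPI libraries against 3564 in Sham, which is 1861 to 1 after scaling, and the counting error at 95% allows 333.8 to 73530.

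In GMTT against GPI 6 of these 10 genes were higher, 2 lower and 2 not called, with a median of 1.52. Hk3 rose by 7.07, Adpgk by 3.16 and Hk1 by 3.03, while Pkm was at -1.27 and Gpi at -0.77. With library sizes alone 9 were higher, 0 lower and 1 not called (median 2.62): Gpi turned to 0.34 and Pkm, at -0.16, was no longer called. In GMTT against Sham 3 were higher, 4 lower and 3 not called, with a median of 0.02, beside 0.88 for the 10 enzyme genes above. Pkm was 0.96 and Gpi 0.55 higher, and Pklr (-0.90), Bpgm (-0.78), Hk1 (-0.36) and Adpgk (-0.17) were lower. The erythroid marker share was 4.63% ± 0.211 in GMTT against 8.56% ± 0.483 in Sham, and its part in these values was not tested.

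Genes that bring glucose in and move lactate also went both ways. Slc2a4, the insulin-responsive glucose transporter GLUT4 of muscle and fat, rose from 13.2 ± 0.638 CPM in Sham to 730 ± 26.9 in GPI (log2 5.79, SE 0.06) and was at 59.0 ± 1.87 in GMTT. Slc2a1, the transporter GLUT1, and Slc2a3, the transporter GLUT3, fell by 0.62 and 2.79. Ldhb and Ldha, the lactate dehydrogenase subunits, rose by 4.92 and 1.63, and of the lactate carriers Slc16a3 rose by 3.02 while Slc16a1 and Slc16a7 fell by 0.60 and 0.76. In all, 4 of the 8 genes were higher and 4 lower in GPI than in Sham (median 0.51, and -0.58 with library sizes alone). In GMTT against GPI 3 were higher, 4 lower and 1 not called (median -0.53). With library sizes alone 5 were higher and 3 lower (median 0.57), and Ldha turned from -0.99 to 0.11. Against Sham 7 were higher and 1 lower in GMTT (median 0.60).

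Regulators, glycogen and the exit to mitochondria were read from 3 further lists. Of 6 flux regulators, which set or remove fructose bisphosphates, 4 were higher and 2 lower in GPI than in Sham (median 1.70), with the muscle bisphosphatase gene Fbp2 at 5.41, Pfkfb1 at 4.33, Pfkfb2 at -1.21 and Pfkfb4 at -1.96. With library sizes alone they were 3 and 3. Of 12 glycogen genes 9 were higher and 3 lower (median 3.76), led by the muscle phosphorylase Pygm (6.72) and the phosphorylase kinase subunit Phkg1 (6.71), while the liver forms Pygl (-3.67) and Phkg2 (-1.81) fell. Of 12 genes of pyruvate entry into mitochondria 10 were higher and 2 lower (median 3.30), led by Pdk4 (8.16) and Pdk2 (4.98), kinases that shut pyruvate dehydrogenase, while Pdk3 (-3.14) and Pdp2 (-0.85) fell.

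In GMTT against GPI the calls were 2 higher, 3 lower and 1 not called of the regulators (median -0.94, but 0.17 with 3 higher and 3 lower with library sizes alone), 3 higher and 9 lower of the glycogen genes (-2.46), and 2 higher and 10 lower of the pyruvate genes (-2.67). Against Sham 4, 10 and 10 genes of the 3 lists were higher in GMTT and 1, 1 and 2 lower (medians 0.72, 1.39 and 0.67). Fbp2 (3.35), Pygm (3.36), Phkg1 (3.29) and Pdk4 (2.60) led these rises over Sham, beside 3.09 for Pgam2 and 3.16 for Eno3.

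**Figure D5:**
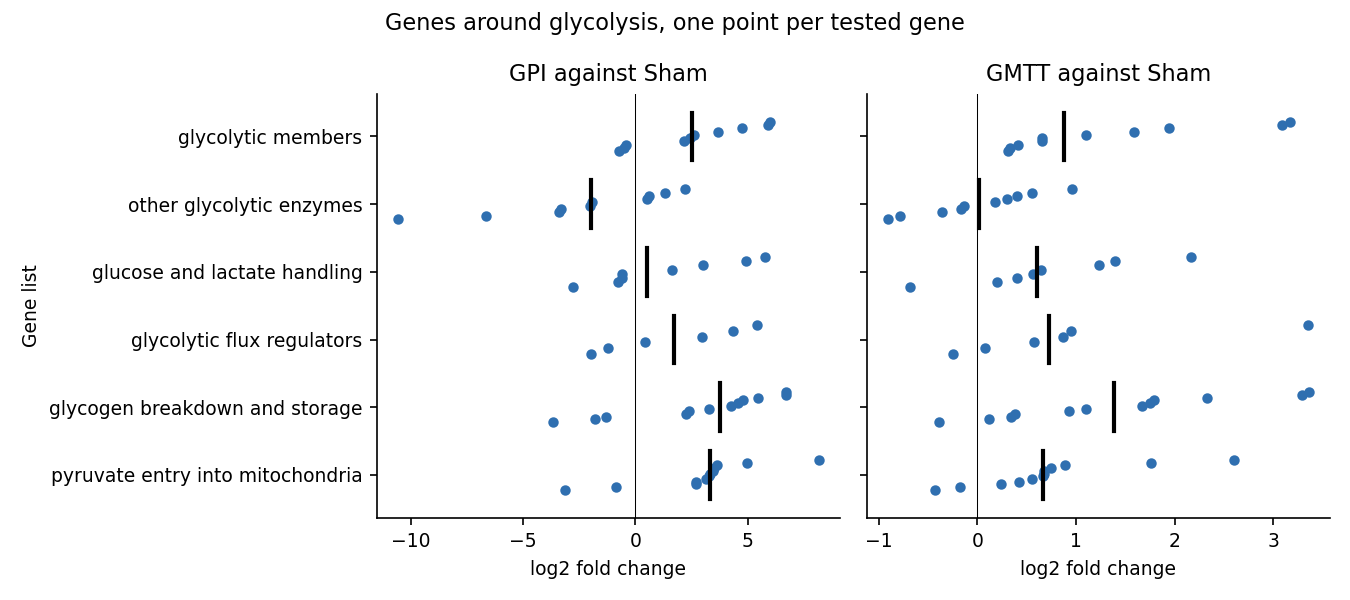
Log2 fold change of each tested gene (points) and the list median (bar) for the 10 enzyme genes (top row, "glycolytic members") and 5 lists around glycolysis, in GPI against Sham and in GMTT against Sham on separate scales. The other glycolytic enzymes have a median of -1.98 and 0.02, below that of the 10 genes at 2.51 and 0.88.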

How the data were processed

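For each gene the authors deposited a raw read count and, in its own table, an FPKM value. The submitters' processing notes name the build mRatBN7.2. The aligner and the counting program were not given in the sources used here. RNA was poly(A)-selected and made into strand-specific dUTP libraries, per the labels' protocols. Each deposited FPKM was the count divided by the gene's length and by a constant of its library, which was 0.598 to 0.608 of the library total in GPI and 1.29 to 1.32 elsewhere, so the libraries are already scaled to each other in FPKM.

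The count test was edgeR 4.0.16 (quasi-likelihood F test, robust, 2-sided, TMM, minimum count 10) in R 4.3.3, with 9 libraries in 1 model of 3 groups, which left 15936 genes. A gene was called below an adjusted p of 0.05 (Benjamini-Hochberg, all genes). Isoform ratios of FPKM, with no pseudocount, were compared by exact permutation. The labels name 3 rats a group but not whether tissue was pooled. The p-values therefore measure only the spread of these samples, which may be technical. Replicate pairs differed beyond sampling noise (chi-square per degree of freedom 1.99 to 5.15), so each library counted as 1 sample. The members and lists were chosen with earlier results of these data known. All 10 members are named; of each further list, the 2 highest and 2 lowest changes may be named, and any other glycolytic or glucose and lactate gene. Counting intervals cover counting error only. The test was also run on simulated counts, in which few genes were changed, as many up as down, and all had the same assumed spread. For GPI against Sham over 14010 genes it recovered 98% of changes at 2-fold, 84% at 1.5-fold and 48% at 1.25-fold. In the real counts of this contrast 88.2% of genes were called. The TMM factors were 0.600 to 0.604 in GPI and 1.28 to 1.29 in Sham. Whether the recovery rates hold with so many genes changed, or under such a difference in scaling, was not tested. Alternatives were other scalings, filters and fits, DESeq2 1.42.0, limma 3.58.1 on log2(FPKM + 1) and log2(FPKM + 0.1), a replicate block, and leaving out each library. Figures were drawn with matplotlib 3.10.9.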

Additional observations from a re-analysis of the deposited data

How the results depend on the processing

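Of 477 fold changes of the 10 genes under alternatives, 0 changed direction and 4 lost their call, all of Aldoa: against GPI with library sizes alone (-0.23), and against Sham with DESeq2 (1.15), without Sham replicate 3 (0.67) and without GMTT replicate 2 (0.90). A filter at 5 CPM in 3 or more libraries left Aldoa untested. With library sizes alone Pfkp, Pgam1 and Eno1 were at -1.80, -1.62 and -1.52 for GPI against Sham, and Hk2, Pfkm, Tpi1, Pgk1, Pgam2 and Eno3 at 1.51, 3.67, 2.58, 1.06, 4.81 and 4.90. All 39 alternatives of the 3 isoform ratios kept direction and call. Raw counts without length, the replicate block and leaving out a GMTT library could not change the GPI minus Sham difference, however. For Pgam2 over Pgam1 that difference lay between 6.38 and 6.47 when any 1 library was left out. Same-numbered libraries of different groups did not deviate together (correlations across genes from -0.146 to 0.0614 in 9 pairs). In the 18 pairs with unlike numbers the correlations were -0.085 to 0.118. No pairing by number was thus seen, but 3 libraries a group are too few to exclude it. With a replicate block 13960, 13574 and 8815 genes were called in the 3 contrasts, against 14049, 13685 and 9218 without it, and all 10 genes kept their calls. In the block fit of the ratios the exact permutation p was 0.02778 for each, the smallest that the blocks allow. Low counts limit Aldoa alone among the 10 genes: its 2 to 25 counts a library give standard errors of 0.33 to 0.41, against at most 0.0747 for the others.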

Other observations

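The balance of general and muscle forms was also read in enzymes outside glycolysis, from lists chosen with earlier results known. Of 9 muscle isoform genes tested, all were higher in GPI than in Sham (median log2 fold change 6.71), lower in GMTT than in GPI and higher in GMTT than in Sham, led in GPI by Ckmt2 (7.11) and Ckm (6.84), the mitochondrial and cytosolic creatine kinases of muscle. Of 7 general isoform genes 6 were lower in GPI than in Sham (median -1.37), with Ckb, the brain-type creatine kinase, at -1.84. The exception was Cox7a2, a subunit of cytochrome c oxidase, which rose by 2.34. Per length the mean log2 ratio of Ckm to Ckb was 0.60 ± 0.07 in Sham, 9.28 ± 0.13 in GPI and 3.52 ± 0.09 in GMTT (SD, n = 3). For Pygm to Pygb it was 1.72 ± 0.02, 9.74 ± 0.19 and 4.96 ± 0.11. For Phkg1 to Phkg2 it was -4.81 ± 0.18, 3.73 ± 0.06 and -1.11 ± 0.05, with the general form ahead in Sham and GMTT, and for Cox7a1 to Cox7a2 the general form led in every group, at -8.53 ± 0.38, -7.001 ± 0.14 and -7.72 ± 0.51. The Cox7a1 row was low, at a mean of 0.418, 6.14 and 0.820 FPKM in Sham, GPI and GMTT, against 152, 785 and 164 for Cox7a2. Whether its counts are complete was not tested, so this ratio is uncertain. These 4 of the 8 pairs compared were picked after their values were seen, and no ratio here was tested.

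Hypoxia target genes outside glycolysis split in GPI against Sham, where 6 of 10 were higher and 4 lower, with a median of 1.22 (4 higher, 4 lower and 2 not called with library sizes alone). Bnip3 (5.23) and Vegfa (4.76) rose most, and Car9 (-1.48) and Ankrd37 (-0.97) fell most. In GMTT against Sham 6 were higher, 1 lower and 3 not called.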
